A study of Mus musculus with 8 samples.

Results

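Described here are 31 genes of lipid synthesis in 4T1, a metastatic mammary carcinoma line from mouse, after knockdown of the kinase MEK5 or of its substrate ERK5. The genes were chosen by name, and all 31 were matched by Entrez Gene number among the 24454 genes listed in the deposited tables. They comprise 17 enzymes of the sterol pathway, 5 genes of the SREBP system and 9 enzymes of fatty acid synthesis, elongation and desaturation. They are not every gene of these pathways.

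Cells build cholesterol from acetyl-CoA. The mevalonate arm makes farnesyl diphosphate, squalene is formed from it and closed to lanosterol, and a chain of late enzymes converts lanosterol to cholesterol. Acly makes cytosolic acetyl-CoA from citrate. Fatty acids are built from the same precursor by Acaca and Fasn, then elongated and desaturated. Transcription of both branches is driven by the SREBP proteins, encoded by Srebf1 and Srebf2, which Scap escorts for activation and Insig1 holds back when sterols are plentiful. Srebf2 is known mainly for the sterol branch and Srebf1, through its SREBP-1c form, mainly for the fatty acid branch.

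Total RNA was sequenced after removal of ribosomal RNA. Every library came from 4T1 cells infected with a lentiviral hairpin and selected with puromycin. Of the 8 libraries, 2 carried a hairpin to MEK5 (shMEK5), 3 a hairpin to ERK5 (shERK5) and 3 a control hairpin (shCTRL). There was 1 hairpin per target, so an effect of the hairpin apart from its target cannot be told apart from the knockdown. The labels do not say whether replicates were separate cultures, and p-values then measure only the spread between these libraries.

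Depth was between 41397315 and 53714288 reads assigned to genes. Values are CPM, reads of a gene per 1000000 such reads, so each is a share of the library's RNA and not an amount per cell; in bulk RNA, fewer cells expressing a gene and less RNA per cell cannot be told apart. Map2k5, which encodes MEK5, was at 14.1 and 14.4 CPM in the shMEK5 libraries and between 35.2 and 37.1 CPM in the shERK5 and shCTRL libraries. Mapk7, which encodes ERK5, lay between 6.33 and 6.66 CPM in shERK5, at 20.4 and 18.7 CPM in shMEK5 and between 25.6 and 28.6 CPM in shCTRL. All 5 epithelial markers examined were above 1 CPM in some library, with sums of 1198 to 1261 CPM in shMEK5, 1350 to 1401 CPM in shERK5 and 1630 to 1817 CPM in shCTRL. These 5 markers did not move together. Krt8 and Krt18, which make up most of the sum, fell in both knockdowns, by 0.53 and 0.60 in shMEK5 and by 0.52 each in shERK5 on the log2 scale. In shERK5, Cdh1 rose by 1.56, Epcam by 1.06 and Krt19 by 1.02; in shMEK5, Cdh1 rose by 0.56 and Krt19 by 0.39, and Epcam was not called (0.10, adjusted p = 0.401). The part of these marker changes in the results was not tested. The 4 adipocyte markers, which would mark a lipid-storing cell type, had a summed level of at most 0.045 CPM in any library, and Adipoq and Fabp4 were at 0 throughout. The 4 leukocyte markers summed to 1.86 to 2.12 CPM in shMEK5, 2.81 to 3.67 CPM in shERK5 and 2.90 to 3.18 CPM in shCTRL, nearly all of it Cd68, which fell in shMEK5 by 0.43 (adjusted p = 0.00617), though not without shMEK5 replicate 1 (-0.362, adjusted p = 0.0566). The 4 fibroblast markers summed to 34.4 to 35.9 CPM in shMEK5, 22.9 to 28.2 CPM in shERK5 and 31.6 to 47.1 CPM in shCTRL, nearly all of it Pdgfra, which fell in shERK5 by 0.48 (adjusted p = 0.018), though not without shERK5 replicate 1 (-0.389, adjusted p = 0.0509). The 3 endothelial markers stayed under 1 CPM, and Cd3e, Dcn and Kdr were at 0 in all libraries.

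Promoters are shown for 5 genes on which the results turn. Hsd17b7 and Cyp51 had the largest rises in shERK5, Lss rose there and was not called in shMEK5, Insig1 had the largest fall, and Hmgcs1, an early enzyme of the pathway, had no called change in either knockdown against shCTRL. Each line gives the 200 bases before the transcription start on the gene's strand, from RefSeq's GRCm38.p6 table. Capitals mark CCAAT, the core of the NF-Y site, or its reverse complement ATTGG, then CACGTG, an E-box, and TCACNCCAC, a core of the sterol regulatory element that SREBP proteins bind, with N as any base. The windows are chr1:169969206-169969405 (minus strand) for Hsd17b7, chr5:4104698-4104897 (minus) for Cyp51, chr10:76531405-76531604 (plus) for Lss, chr5:28071212-28071411 (plus) for Insig1 and chr13:119690151-119690350 (plus) for Hmgcs1.
Hsd17b7: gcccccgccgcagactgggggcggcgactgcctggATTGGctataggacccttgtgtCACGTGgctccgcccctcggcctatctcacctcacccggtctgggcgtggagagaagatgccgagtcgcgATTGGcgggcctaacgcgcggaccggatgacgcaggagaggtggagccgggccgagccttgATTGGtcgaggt
Cyp51: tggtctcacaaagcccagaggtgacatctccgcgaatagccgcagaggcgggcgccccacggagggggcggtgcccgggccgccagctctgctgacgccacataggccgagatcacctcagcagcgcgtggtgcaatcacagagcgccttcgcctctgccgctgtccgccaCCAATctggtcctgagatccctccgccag
Lss: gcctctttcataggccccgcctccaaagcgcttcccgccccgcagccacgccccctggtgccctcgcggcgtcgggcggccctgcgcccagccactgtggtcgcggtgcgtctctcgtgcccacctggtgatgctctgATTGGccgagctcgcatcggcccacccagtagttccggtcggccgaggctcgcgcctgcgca
Insig1: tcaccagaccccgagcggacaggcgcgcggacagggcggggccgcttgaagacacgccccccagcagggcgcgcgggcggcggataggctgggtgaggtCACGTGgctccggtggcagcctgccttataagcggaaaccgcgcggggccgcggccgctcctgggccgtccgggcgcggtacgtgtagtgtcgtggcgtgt
Hmgcs1: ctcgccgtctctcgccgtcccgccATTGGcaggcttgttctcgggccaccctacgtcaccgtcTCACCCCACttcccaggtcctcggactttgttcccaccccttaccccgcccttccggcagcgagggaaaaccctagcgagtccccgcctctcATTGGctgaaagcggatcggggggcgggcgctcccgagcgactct

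The CCAAT box was common to the sterol enzymes. RefSeq windows of 300 bases, running from 250 before to 50 after the start, were found for 24 of the 31 genes, with 30 windows in all because some genes have several starts. CCAAT stood on either strand in 20 of the 24 genes (83.3%), against 43.9% of the 9246 tested genes with a window and 37.4% of all 32851 windows. It was present in 14 of 14 sterol enzymes, in 3 of 4 SREBP system genes and in 3 of 6 fatty acid genes. The sterol regulatory element core was in 1 of the 24 genes (4.17%), Hmgcs1, and in 1.31% of tested genes with a window. Only the exact pattern TCACNCCAC was searched. Elements that depart from it were not counted, so a lack of matches does not show a lack of SREBP sites. The E-box was in 5 of the 24 (20.8%), against 12.1% of tested genes, and GGGCGG, the GC box, in 20 of the 24 (83.3%), against 70.8%. No match of one motif overlapped a match of another. CCAAT was present in 8 of 8 genes that rose in shERK5 against shCTRL, 5 of 6 that fell and 7 of 10 that were not called, so its presence did not separate these classes. Fdps, Fdft1, Sqle, Stard4, Scd1, Scd2 and Fads1 had no entry.

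Levels differed widely between the genes. Per kilobase of the longest protein-coding transcript in GENCODE M21, the shCTRL mean was highest for Fdps, the farnesyl diphosphate synthase, at 109 CPM per kb, followed by Scd2, a stearoyl-CoA desaturase, at 82.4 CPM per kb. Msmo1, a sterol C4 demethylase, and Acly, which makes cytosolic acetyl-CoA from citrate, stood at 65.0 and 64.7 CPM per kb. The lowest were Idi1, the isopentenyl diphosphate isomerase, at 1.72 CPM per kb and Stard4, a sterol carrier, at 1.57 CPM per kb. All 31 genes passed the filter of at least 1 CPM in at least 2 libraries and were tested.

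Across the 31 genes the share that changed was close to that of all genes. A gene counts as called where limma on log2(CPM + 1) gave an adjusted p below 0.05, with Benjamini-Hochberg adjustment over 11623 tested genes. In shMEK5 against shCTRL, 14 of 31 (45.2%) were called, with 4 higher and 10 lower; of all tested genes 48.7% were called, 23.1% higher and 25.6% lower. In shERK5 against shCTRL, 19 of 31 (61.3%) were called, with 9 higher and 10 lower, against 63.3% of all tested genes, 32.0% higher and 31.3% lower. The total shares are near the background. By direction, the shMEK5 shares lay further from it, at 12.9% of the 31 genes higher and 32.3% lower. The shERK5 shares by direction were 29.0% higher and 32.3% lower. A response of the 31 genes as a set was not tested. The values below describe the pattern among the 31 genes, by step of the pathway. Differences between steps were not tested. Against shCTRL, 8 genes fell in both knockdowns and 3 rose in both, while 9 were called in neither. Of all tested genes, 17.5% fell in both, 17.4% rose in both and 25.9% were called in neither; both comparisons use the same shCTRL libraries.

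**Figure D1:**
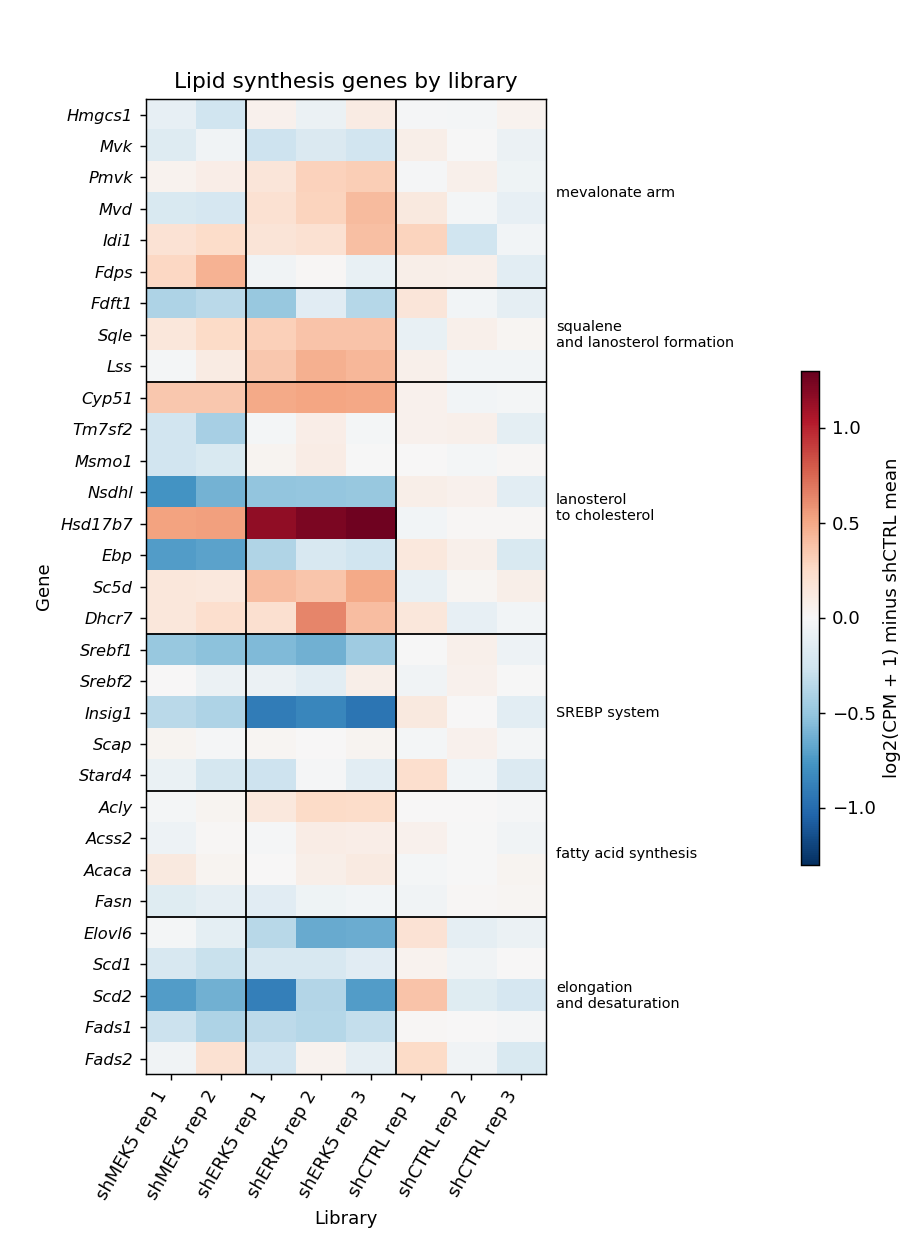
Each row is a gene and each column a library; colour gives log2(CPM + 1) minus the mean of the 3 shCTRL libraries, and horizontal lines separate the steps of the pathways. Hsd17b7 is the darkest red row, in the 3 shERK5 libraries, while Insig1, Srebf1, Scd2 and Nsdhl are blue in all 5 knockdown libraries.

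Among the 17 sterol enzymes, 8 rose and 4 fell in shERK5, and 5 were not called. Their median log2 fold change was 0.251, against 0.002 over all tested genes. The share that rose was 47.1%, against 32.0% of all tested genes. In shMEK5, 4 of the 17 rose, 5 fell and 8 were not called, with a median of 0.045 against -0.019 over all tested genes. Library by library, the median difference of these 17 genes from the shCTRL mean was -0.022 and 0.083 in the shMEK5 libraries, 0.153, 0.195 and 0.321 in the shERK5 libraries, and 0.066, -0.001 and -0.037 in the shCTRL libraries, on the log2(CPM + 1) scale. The 3 shERK5 libraries lay above all others by this measure.

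Hsd17b7 had the largest fold change of the 31 genes. It encodes a ketosteroid reductase that acts in the removal of the C4 methyl groups, and lies on chromosome 1 (169949535 to 169969242, GRCm38). Its level was 15.4 and 15.4 CPM in shMEK5, 24.2, 25.6 and 26.4 CPM in shERK5, and 10.1, 10.5 and 10.5 CPM in shCTRL. The 3 groups did not overlap, and each shERK5 library exceeded each shMEK5 library. Its log2 fold change in shMEK5 was 0.53 (SE 0.07, adjusted p = 0.000125), and in shERK5 1.21 (SE 0.06, adjusted p = 1.94e-07). It was the only 1 of the 31 genes to change by at least 2-fold in any of the comparisons.

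Cyp51, the lanosterol demethylase that opens the late pathway, also rose in both knockdowns. It was at 57.8 and 57.7 CPM in shMEK5, 64.0, 64.5 and 64.4 CPM in shERK5, and 47.1, 44.0 and 44.2 CPM in shCTRL. These groups were also fully separated. The log2 fold change was 0.35 (SE 0.05, adjusted p = 0.000342) in shMEK5 and 0.50 (SE 0.05, adjusted p = 7.8e-06) in shERK5. Sqle, the squalene epoxidase and a rate-controlling enzyme, averaged 111 ± 5.57 CPM in shMEK5 (SD, n = 2), 124 ± 2.76 CPM in shERK5 (SD, n = 3) and 97.0 ± 5.46 CPM in shCTRL (SD, n = 3). It rose by 0.20 (SE 0.06, adjusted p = 0.02) in shMEK5 and by 0.35 (SE 0.05, adjusted p = 0.000241) in shERK5. In shMEK5, Sqle was no longer called when shMEK5 replicate 2 (0.145, adjusted p = 0.17) or shCTRL replicate 1 (0.15, adjusted p = 0.0503) was left out.

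Another group of sterol enzymes rose in shERK5 and was not called in shMEK5. Lss, which closes squalene epoxide to lanosterol, was at 72.9, 78.8 and 77.3 CPM in shERK5 and at 59.6, 55.6 and 55.7 CPM in shCTRL, and its log2 fold change was 0.42 (SE 0.06, adjusted p = 0.000101). In shMEK5 it was at 56.0 and 61.6 CPM, within the shCTRL range at its lower value (0.04, 95% confidence interval -0.09 to 0.18). Sc5d, a desaturase of the last steps, rose in shERK5 by 0.42 (SE 0.06, adjusted p = 9.88e-05). Dhcr7, the last reductase of the chain, rose there by 0.41 (SE 0.11, adjusted p = 0.00754). Mvd and Pmvk, consecutive enzymes of the mevalonate arm, rose by 0.30 (SE 0.08, adjusted p = 0.00783) and 0.26 (SE 0.06, adjusted p = 0.00342). In shMEK5 these last 4 genes had log2 fold changes between -0.21 (Mvd) and 0.18 (Dhcr7), none called; the difference between the knockdowns is tested further on.

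Of 6 sterol enzymes that fell in either knockdown, Nsdhl, Ebp and Fdft1 fell in both. Nsdhl, the C4 decarboxylating dehydrogenase, which precedes Hsd17b7 in the same demethylation cycle, was at 2.08 and 2.44 CPM in shMEK5, 2.68, 2.72 and 2.74 CPM in shERK5, and 4.55, 4.49 and 3.79 CPM in shCTRL. Both knockdowns lay below every shCTRL library. The log2 fold change was -0.69 (SE 0.10, adjusted p = 0.000242) in shMEK5 and -0.50 (SE 0.09, adjusted p = 0.000558) in shERK5. At this low level the log2(CPM + 1) scale understates the change. The mean was 52.8% of shCTRL in shMEK5 and 63.5% in shERK5. Under alternatives other than leaving a library out, the values reached -0.90 in shMEK5 and -0.66 in shERK5. Ebp, the sterol isomerase, was at 12.9 and 13.3 CPM in shMEK5, 16.6, 19.0 and 18.3 CPM in shERK5, and 24.4, 23.1 and 19.1 CPM in shCTRL. Its highest shERK5 library and lowest shCTRL library were nearly equal. Ebp fell by 0.71 (SE 0.10, adjusted p = 0.000267) in shMEK5 and by 0.28 (SE 0.09, adjusted p = 0.0181) in shERK5. In shERK5 the call ended without any of shERK5 replicate 1 (-0.23, adjusted p = 0.0539), shCTRL replicate 1 (-0.215, adjusted p = 0.0685) or shCTRL replicate 2 (-0.254, adjusted p = 0.0639).

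Fdft1, squalene synthase, which commits farnesyl diphosphate to sterols, averaged 20.0 ± 0.478 CPM in shMEK5 (SD, n = 2), 20.7 ± 2.70 CPM in shERK5 (SD, n = 3) and 26.4 ± 2.72 CPM in shCTRL (SD, n = 3). It fell by 0.38 (SE 0.11, adjusted p = 0.0149) in shMEK5 and by 0.34 (SE 0.10, adjusted p = 0.0107) in shERK5. The shMEK5 call was lost without shMEK5 replicate 1 (-0.353, adjusted p = 0.0853) or replicate 2 (-0.40, adjusted p = 0.0607). Fdft1 overlaps 774 bases of Ctsb, a cathepsin gene with a mean of 531 CPM, and whether reads were counted by strand was not given in the sources used here; Ctsb had log2 fold changes of -0.105 in shMEK5 (adjusted p = 0.209) and 0.307 in shERK5 (adjusted p = 0.00103).

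Further falls were called in a single knockdown. In shMEK5, Msmo1 fell by 0.22 (SE 0.05, adjusted p = 0.00413) and Tm7sf2, a sterol C14 reductase, by 0.34 (SE 0.10, adjusted p = 0.0139). The Tm7sf2 call ended without shMEK5 replicate 2 (-0.251, adjusted p = 0.131). Without that library the count of sterol enzymes that fell in shMEK5 was 3 in place of 5. In shERK5, Mvk, mevalonate kinase, fell by 0.24 (SE 0.07, adjusted p = 0.0113).

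Fdps was the only gene of the mevalonate arm called in shMEK5. It was at 182 and 207 CPM in shMEK5, 146, 152 and 141 CPM in shERK5, and 159, 157 and 137 CPM in shCTRL. The shMEK5 libraries were the highest, and the shERK5 libraries lay within the shCTRL range. The rise in shMEK5 was 0.36 (SE 0.08, adjusted p = 0.00305). In shERK5 the log2 fold change was -0.05 (95% confidence interval -0.20 to 0.11). Hmgcs1, the synthase that makes HMG-CoA, and Idi1 were not called in either knockdown. Hmgcs1 had -0.18 (SE 0.07, adjusted p = 0.0612) in shMEK5 and 0.03 (SE 0.07, adjusted p = 0.72) in shERK5. It was called in shMEK5 without shERK5 replicate 2 (-0.184, adjusted p = 0.0451). Idi1 was low, at 6.01 and 6.25 CPM in shMEK5, 5.88, 6.03 and 7.06 CPM in shERK5, and 6.51, 4.14 and 4.99 CPM in shCTRL. Without shCTRL replicate 1 it was called higher in shMEK5 (0.362, adjusted p = 0.0263) and in shERK5 (0.397, adjusted p = 0.00832).

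**Figure D2:**
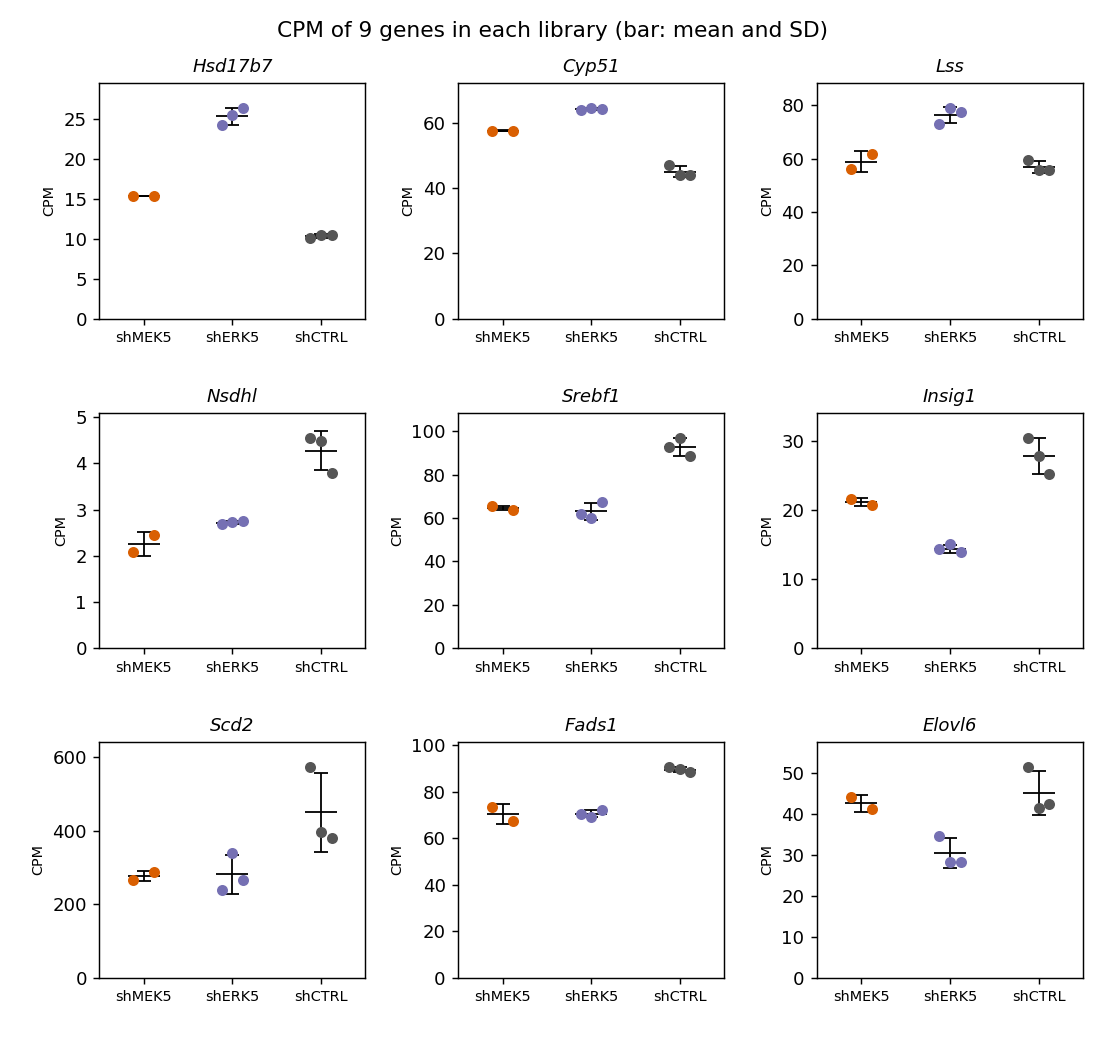
CPM of 9 of the genes in every library, by hairpin; points are libraries, and horizontal bars with whiskers give the mean and SD (n = 2 for shMEK5, 3 for the others). Hsd17b7, Cyp51 and Lss stand highest in shERK5, whereas Nsdhl, Srebf1, Insig1 and Fads1 stand below every shCTRL library in both knockdowns.

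In the SREBP system, Srebf1 and Insig1 fell in both knockdowns, and Srebf2, Scap and Stard4 were not called. Srebf1 (chromosome 11, 60199084 to 60224186, GRCm38) was at 65.4 and 63.8 CPM in shMEK5, 62.0, 59.8 and 67.1 CPM in shERK5, and 92.6, 96.9 and 88.6 CPM in shCTRL. Every knockdown library was below every shCTRL library. The mean was 69.7% of shCTRL in shMEK5 and 67.9% in shERK5, with log2 fold changes of -0.51 (SE 0.06, adjusted p = 9.54e-05) and -0.55 (SE 0.06, adjusted p = 1.43e-05). The table counts reads per gene, so the SREBP-1a and SREBP-1c forms are not separated.

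Insig1 (chromosome 5, 28071412 to 28078662, GRCm38) had the largest fall of the 31 genes. It was at 21.5 and 20.7 CPM in shMEK5, 14.3, 15.0 and 13.8 CPM in shERK5, and 30.4, 27.8 and 25.1 CPM in shCTRL. The 3 groups did not overlap, with shERK5 lowest. The mean was 76.0% of shCTRL in shMEK5 and 51.7% in shERK5, with log2 fold changes of -0.38 (SE 0.08, adjusted p = 0.00368) and -0.90 (SE 0.07, adjusted p = 3.5e-06).

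The remaining SREBP system genes stayed close to shCTRL. Srebf2 averaged 50.9 ± 2.04 CPM in shMEK5 (SD, n = 2), 50.5 ± 3.82 CPM in shERK5 (SD, n = 3) and 52.1 ± 1.92 CPM in shCTRL (SD, n = 3). Its 95% confidence interval was -0.19 to 0.12 in shMEK5 and -0.18 to 0.09 in shERK5 on the log2 scale. For Scap the intervals were -0.10 to 0.12 and -0.07 to 0.12. Stard4 averaged 7.03 ± 0.543 CPM in shMEK5 (SD, n = 2), 7.15 ± 0.733 CPM in shERK5 (SD, n = 3) and 8.02 ± 1.25 CPM in shCTRL (SD, n = 3), with log2 fold changes of -0.16 (adjusted p = 0.298) and -0.14 (adjusted p = 0.275).

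In the fatty acid branch, 3 of the 5 elongation and desaturation genes fell in shMEK5 and 4 of 5 in shERK5, and 0 rose, with median log2 fold changes of -0.248 and -0.340. Of all tested genes, 25.6% fell in shMEK5 and 31.3% in shERK5. Of the 4 genes of fatty acid synthesis itself, 0 were called in shMEK5 and 1 rose in shERK5; the difference between these subsets was not tested. For the 9 genes together, 0 rose and 3 fell in shMEK5 (median -0.076), and 1 rose and 4 fell in shERK5 (median -0.106). The median difference of the 5 elongation and desaturation genes from the shCTRL mean was -0.209 and -0.287 in the shMEK5 libraries, -0.342, -0.370 and -0.309 in the shERK5 libraries, and 0.190, -0.048 and -0.078 in the shCTRL libraries.

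Scd1 and Scd2, neighbours on chromosome 19 (44394450 to 44407709 and 44293676 to 44306864, GRCm38), encode stearoyl-CoA desaturases, which make monounsaturated fatty acids. Scd2 was at 266 and 287 CPM in shMEK5, 238, 339 and 266 CPM in shERK5, and 572, 397 and 380 CPM in shCTRL. All knockdown libraries were below all shCTRL libraries, and shCTRL replicate 1 stood well above the other two. The log2 fold change was -0.67 in both knockdowns (SE 0.20, adjusted p = 0.0233 in shMEK5; SE 0.18, adjusted p = 0.0113 in shERK5). The shMEK5 call was lost without shMEK5 replicate 1 (-0.621, adjusted p = 0.12) or replicate 2 (-0.729, adjusted p = 0.0814), and that in shERK5 when shERK5 replicate 1 was left out (-0.555, adjusted p = 0.0591). Without shCTRL replicate 1 the Scd2 log2 fold changes were smaller, at -0.489 in shMEK5 and -0.482 in shERK5, and both stayed called. Scd1 fell by 0.25 (SE 0.05, adjusted p = 0.00286) in shMEK5 and by 0.19 (SE 0.05, adjusted p = 0.00531) in shERK5, with a narrower spread between libraries. The assignment of reads shared by the Scd copies was not given in the sources used here.

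Fads1 and Fads2, also neighbours on chromosome 19, encode the delta-5 and delta-6 desaturases of polyunsaturated fatty acids. Fads1 was at 73.4 and 67.4 CPM in shMEK5, 70.4, 69.0 and 72.1 CPM in shERK5, and 90.5, 89.8 and 88.4 CPM in shCTRL. It fell by 0.34 in both knockdowns (SE 0.05 in each, adjusted p = 0.000437 in shMEK5 and 0.000131 in shERK5), with no overlap with shCTRL. Fads2 averaged 24.9 ± 3.09 CPM in shMEK5 (SD, n = 2), 21.8 ± 2.32 CPM in shERK5 (SD, n = 3) and 23.7 ± 3.97 CPM in shCTRL (SD, n = 3). Its log2 fold changes of 0.08 and -0.11 were not called, with 95% confidence intervals of -0.24 to 0.39 and -0.38 to 0.17. The difference between Fads1 and Fads2 was not tested, and in shERK5 the interval of Fads2 contains the change of Fads1.

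Elovl6, which elongates palmitate to stearate, fell in shERK5 and was not called in shMEK5. It was at 44.0 and 41.1 CPM in shMEK5, 34.6, 28.2 and 28.3 CPM in shERK5, and 51.3, 41.5 and 42.5 CPM in shCTRL. Only the shERK5 libraries lay below the shCTRL range as a group. The log2 fold change was -0.08 (SE 0.11, adjusted p = 0.595) in shMEK5 and -0.55 (SE 0.10, adjusted p = 0.000865) in shERK5.

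The genes that make acetyl-CoA or build palmitate from it changed little. Acly was at 281 and 293 CPM in shMEK5, 314, 341 and 339 CPM in shERK5, and 288, 287 and 283 CPM in shCTRL. The rise in shERK5 was 0.21 (SE 0.05, adjusted p = 0.00242). In shMEK5 the log2 fold change was 0.00 (95% confidence interval -0.11 to 0.12). Fasn, fatty acid synthase, averaged 201 ± 4.55 CPM in shMEK5 (SD, n = 2), 209 ± 9.22 CPM in shERK5 (SD, n = 3) and 221 ± 5.95 CPM in shCTRL (SD, n = 3). Its log2 fold changes were -0.14 (SE 0.05, adjusted p = 0.0517) and -0.08 (SE 0.05, adjusted p = 0.172). The first was called without shERK5 replicate 1 (-0.138, adjusted p = 0.0341) or shCTRL replicate 1 (-0.16, adjusted p = 0.0397). Acaca, the carboxylase that makes malonyl-CoA, and Acss2, which makes acetyl-CoA from acetate, had log2 fold changes between -0.03 and 0.08 in the 2 knockdowns, none called.

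**Figure D3:**
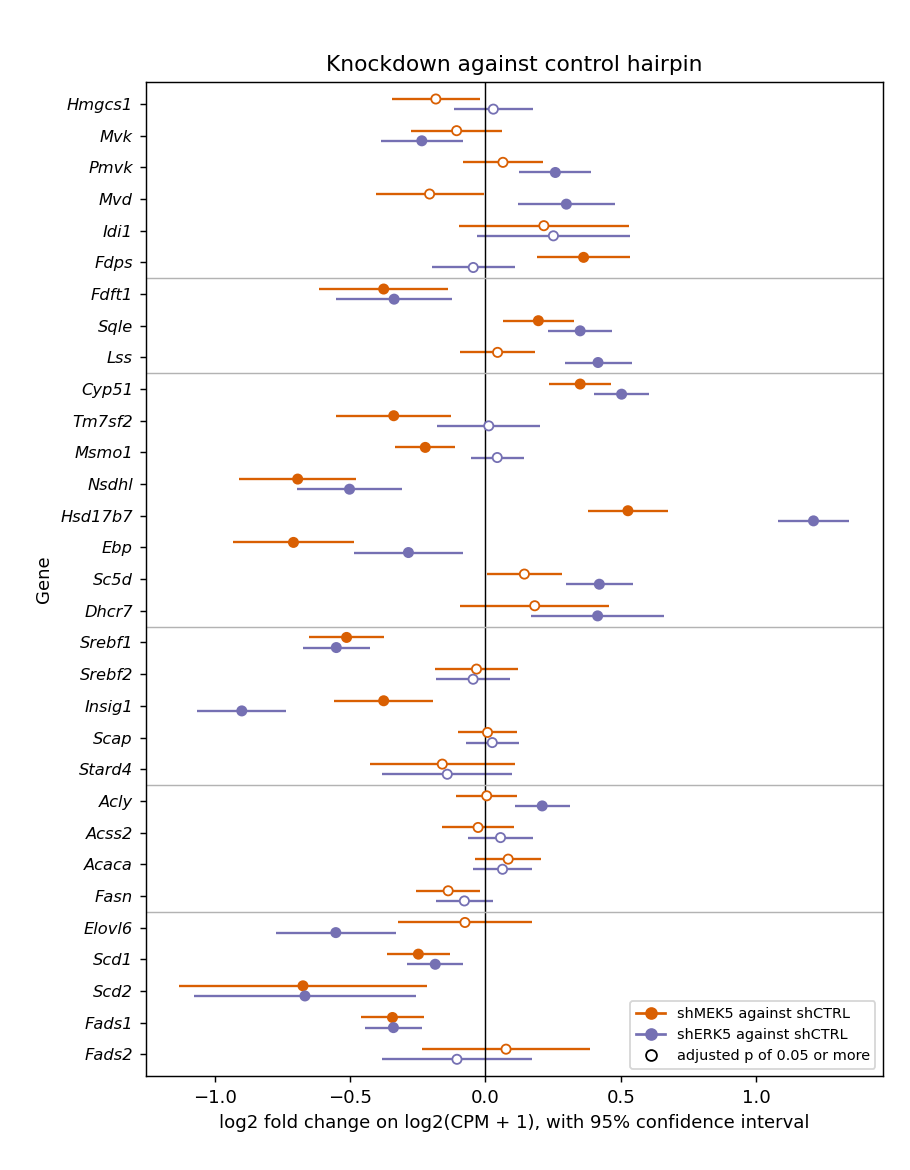
Log2 fold change on log2(CPM + 1) of each gene in shMEK5 (orange) and shERK5 (purple) against shCTRL, with 95% confidence intervals; filled points passed an adjusted p of 0.05, and grey lines separate the steps of the pathways. Hsd17b7 lies farthest right in shERK5 (1.21) and Insig1 farthest left (-0.90), while both points of Srebf1, Scd1, Scd2 and Fads1 lie left of 0.

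Compared directly, 10 of the 17 sterol enzymes were higher in shERK5 than in shMEK5, 1 was lower and 6 were not called, with a median difference of 0.213 on the log2 scale against 0.017 over all tested genes. The share that was higher was 58.8%, against 22.0% of all tested genes. A raised share was not particular to the sterol enzymes. In the related lists below, 53.3% of sterol transport genes, 50% of glycerolipid genes and 46.7% of the wider fatty acid set were higher. The share was 90% for fatty acid oxidation, 33.3% for SREBP processing, 20% for isoprenoid side branches and 11.1% for the 9 fatty acid enzymes. All 8 late enzymes, from Cyp51 to Dhcr7, had a positive difference, and 6 of them were called. Over the 31 genes, 14 (45.2%) were called, 11 higher and 3 lower, against 39.4% of all tested genes, of which 22.0% were higher and 17.4% lower. The count of higher genes was 7 in place of 11 without shMEK5 replicate 1 or without shMEK5 replicate 2, and that of sterol enzymes was 6 in place of 10 without shMEK5 replicate 2.

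Hsd17b7 had the largest difference, 0.69 (SE 0.07, adjusted p = 3.06e-05), followed by Mvd at 0.51 (SE 0.09, adjusted p = 0.00139). Mvd was at 15.0, 16.1 and 17.6 CPM in shERK5 and at 11.2 and 11.0 CPM in shMEK5, with no overlap. Lss was higher in shERK5 by 0.37 (SE 0.06, adjusted p = 0.000988), Sc5d by 0.28 (SE 0.06, adjusted p = 0.00566) and Msmo1 by 0.27 (SE 0.05, adjusted p = 0.00188). Msmo1 was at 136, 142 and 133 CPM in shERK5 and at 112 and 116 CPM in shMEK5. Ebp was higher by 0.43 (SE 0.10, adjusted p = 0.00722) and Tm7sf2 by 0.35 (SE 0.10, adjusted p = 0.0143). Ebp lost its call without shMEK5 replicate 1 (0.407, adjusted p = 0.0526) and Tm7sf2 without shMEK5 replicate 2 (0.263, adjusted p = 0.126).

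The other 3 calls among sterol enzymes that were higher in shERK5 were close to the threshold. Hmgcs1 (0.21, adjusted p = 0.0418), Pmvk (0.19, adjusted p = 0.0413) and Cyp51 (0.15, adjusted p = 0.0381) each lost the call with TMM or RLE size factors and with edgeR or DESeq2 on the recovered reads. With edgeR the adjusted p was 0.066 for Hmgcs1, 0.059 for Pmvk and 0.0626 for Cyp51. Leaving out a library also ended these calls. For Hmgcs1 this was shMEK5 replicate 2 (0.139, adjusted p = 0.281), shERK5 replicate 1 or 3, or shCTRL replicate 2 or 3. For Pmvk it was either shMEK5 library, shERK5 replicate 2 or 3 or shCTRL replicate 3, with adjusted p between 0.0509 and 0.188. For Cyp51 it was any shMEK5 or shERK5 library or shCTRL replicate 3, with adjusted p between 0.0513 and 0.1475. Dhcr7 and Sqle were not called in full, but Dhcr7 was called without shERK5 replicate 1 (0.335, adjusted p = 0.0373) and Sqle without shCTRL replicate 1 (0.155, adjusted p = 0.0325).

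A few genes were lower in shERK5 than in shMEK5. Insig1 differed by -0.52 (SE 0.08, adjusted p = 0.000661), Fdps by -0.41 (SE 0.08, adjusted p = 0.00195) and Elovl6 by -0.48 (SE 0.11, adjusted p = 0.0072). The call of Elovl6 was lost without shMEK5 replicate 1 (-0.429, adjusted p = 0.067). Acly was higher in shERK5 by 0.21 (SE 0.05, adjusted p = 0.0093), a call also lost without shMEK5 replicate 1 (0.174, adjusted p = 0.094). For Srebf1, Scd1, Scd2 and Fads1, which fell in both knockdowns, the difference between knockdowns was not called, with 95% confidence intervals of -0.18 to 0.10, -0.05 to 0.18, -0.45 to 0.47 and -0.11 to 0.12.

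**Figure D4:**
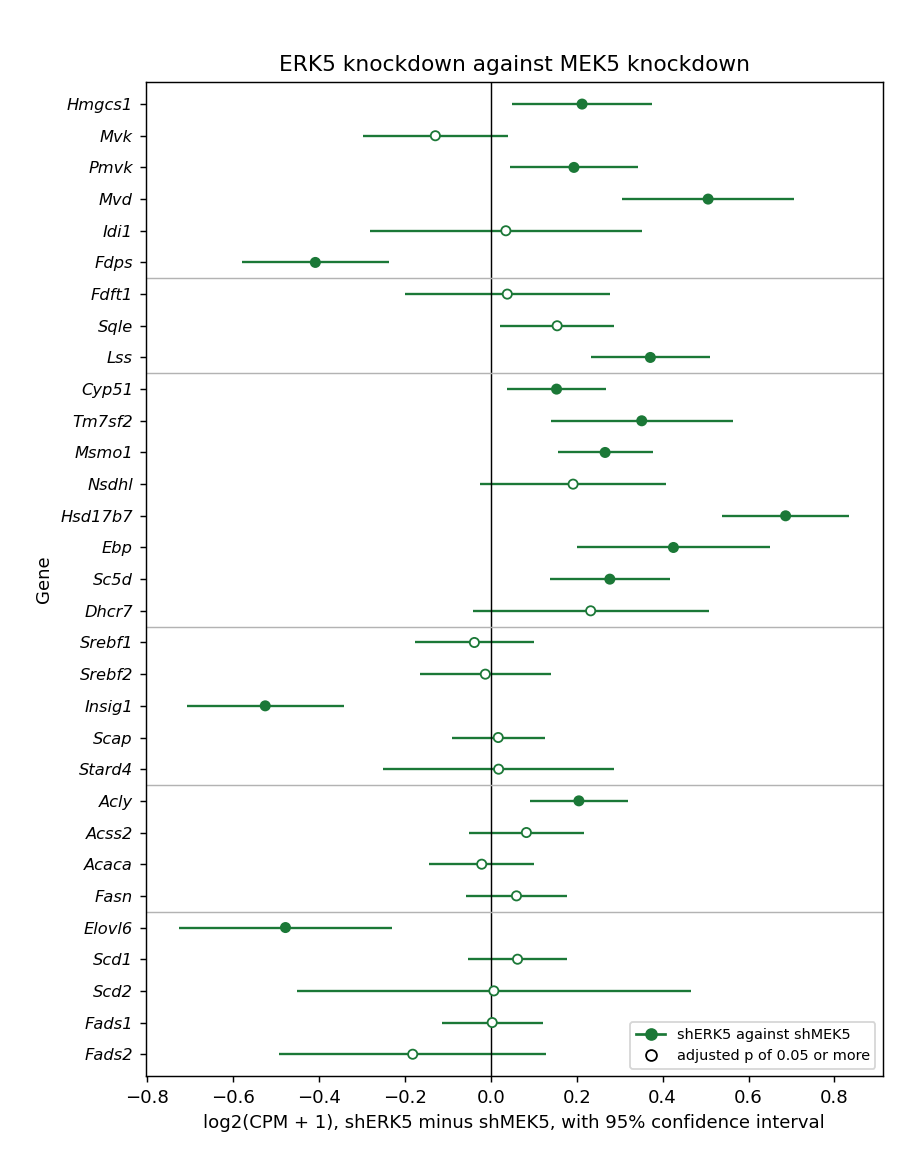
Difference in log2(CPM + 1) between shERK5 and shMEK5 for each gene, shERK5 minus shMEK5, with 95% confidence intervals; filled points passed an adjusted p of 0.05. Points of the late sterol enzymes from Cyp51 to Dhcr7 all lie right of 0, and those of Fdps, Insig1 and Elovl6 are the filled points left of 0.

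Related genes of the same pathways are given below as counts, to be read against all tested genes, of which 23.1% were called higher and 25.6% lower in shMEK5. The shares in shERK5 were 32.0% higher and 31.3% lower. Of 10 genes around the isoprenoid side branches, 4 rose and 2 fell in shERK5, near that background in total. In shMEK5, 2 rose and 1 fell; leaving out a single library gave 1 to 2 that rose and 1 to 3 that fell. Coq2, the prenyltransferase of ubiquinone synthesis, rose in both, by 0.71 (SE 0.05, adjusted p = 1.42e-06) in shERK5 and 0.55 (SE 0.06, adjusted p = 3.4e-05) in shMEK5. Acat2, which makes acetoacetyl-CoA at the entry of the pathway, fell in both, by 0.49 (SE 0.10, adjusted p = 0.00288) in shMEK5 and by 0.34 (SE 0.09, adjusted p = 0.00828) in shERK5. Ggps1, which makes geranylgeranyl diphosphate, was lower in shERK5 than in shMEK5 by 0.36 (SE 0.07) on the log2 scale.

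Of 9 tested genes that process SREBP proteins or degrade their regulators, 6 fell (66.7%) and 2 rose (22.2%) in shMEK5, against 25.6% and 23.1% of all tested genes; the list's median was -0.188 against -0.019 over all tested genes. These counts rest on both shMEK5 libraries: 4 fell and 0 rose without replicate 1, and 2 fell and 1 rose without replicate 2. In shERK5, 4 rose and 2 fell, with 2 that rose without shERK5 replicate 3 or shCTRL replicate 2. Mbtps1, the site-1 protease that first cleaves SREBP, fell in both, by 0.30 (SE 0.05, adjusted p = 0.00113) in shMEK5 and by 0.19 (SE 0.05, adjusted p = 0.00558) in shERK5. Erlin2, which acts in the sterol-regulated degradation of membrane proteins, averaged 89.2 CPM in shMEK5, 130 CPM in shERK5 and 115 CPM in shCTRL. It fell in shMEK5 (-0.36) and rose in shERK5 (0.18).

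Of 15 tested genes of sterol transport and esterification, 8 fell (53.3%) and 4 rose (26.7%) in shMEK5, where 25.6% of all tested genes fell and 23.1% rose; 2 rose without shCTRL replicate 3. In shERK5, 5 fell and 5 rose (33.3% each), near the background of 31.3% and 32.0%. Soat1, which esterifies cholesterol, fell in shMEK5 by 0.46 (SE 0.05, adjusted p = 4.43e-05), and Lipa, the lysosomal acid lipase, by 0.59 (SE 0.09, adjusted p = 0.000457). Nr1h2, the oxysterol receptor LXR-beta, fell in both, by 0.37 (SE 0.08, adjusted p = 0.00247) in shMEK5 and by 0.65 (SE 0.07, adjusted p = 1.83e-05) in shERK5. Lipa rose in shERK5 (0.47, adjusted p = 0.000607) and was higher there than in shMEK5 by 1.06 (SE 0.09) on the log2 scale.

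Of 15 tested genes in a wider set around fatty acid synthesis, 6 fell and 0 rose in shMEK5, in total 40% against 48.7% of all tested genes. By direction, 40% fell in shMEK5, against 25.6% of all tested genes, and 0 rose, against 23.1%. In shERK5, 6 rose and 3 fell, in total 60% against 63.3%. By direction, 40% rose and 20% fell there, against 32.0% and 31.3%. Idh1, the cytosolic isocitrate dehydrogenase and a source of NADPH, averaged 38.5 CPM in shMEK5, 49.1 CPM in shERK5 and 82.0 CPM in shCTRL, a fall of 1.06 (SE 0.12, adjusted p = 0.000118) in shMEK5 and of 0.72 (SE 0.11, adjusted p = 0.00035) in shERK5. Acsl4, which activates polyunsaturated fatty acids, averaged 49.2 CPM in shERK5 and 134 CPM in shCTRL, a fall of 1.40 (SE 0.15, adjusted p = 0.000112). Mid1ip1, an activator of acetyl-CoA carboxylase, fell in both knockdowns, by 0.33 in shMEK5 and 0.50 in shERK5. Me1, malic enzyme, rose in shERK5 by 0.40 (SE 0.06, adjusted p = 0.000127). In shMEK5 Me1 fell by 0.23 (SE 0.06, adjusted p = 0.0107), a call lost without shMEK5 replicate 2 (-0.188, adjusted p = 0.099).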

How the data were processed

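The authors deposited CPM per gene for 8 libraries, and each file summed to 1000000. Per the labels' protocols the libraries were stranded total RNA depleted of ribosomal RNA. The submitters' processing notes name STAR and mm10 (GRCm38); the counting program, its use of strand and the annotation were not given in the sources used here. Symbols came from RefSeq GRCm38.p6 for 24374 of 24454 Entrez numbers. Whole reads were recovered, with 100% of values above 0 within 0.01 read of a whole number. Counting error is therefore known, but reads are not independent molecules.

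Tests used limma 3.58.1 with trend and robust moderation on log2(CPM + 1), all 8 libraries, no covariate. Fold changes on this scale understate those of low genes. Genes with at least 1 CPM in at least 2 libraries were tested (11623). On the recovered reads, edgeR 4.0.16 called 5627 genes in shMEK5, 7350 in shERK5 and 4452 between the knockdowns, and limma 5663, 7360 and 4581. This test was first run on simulated data with known changes. Replicate pairs differed by more than sampling noise (chi-square per degree of freedom 8.22 to 42.5), so none was merged.

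The 31 genes and all lists were chosen with earlier results of these data known. All 31 may be named; from each of 6 lists of related genes, names were taken from the 3 called genes per comparison with the smallest adjusted p and a mean of at least 5 CPM. Some genes these rules would name are not reported here. Motifs were searched on both strands. Alternatives were TMM and RLE size factors, pseudocounts of 0.1 and 0.5, other filters, edgeR, DESeq2 1.42.0, a replicate block, the compared groups alone, and each library left out; the related genes and the markers were added to these after seeing the data.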

Additional observations from a re-analysis of the deposited data

How the results depend on the processing

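Of 93 fold changes (31 genes in 3 comparisons) under 18 alternatives, 73 kept their side of the threshold throughout, 20 crossed it under some alternative and 0 called values changed sign. Among counts over all genes or over branches, those that moved by over 1.5 times did so when a library was left out. Sterol enzymes lower in shMEK5 against shCTRL numbered 3 to 6 in such fits. Between shERK5 and shMEK5, higher genes among the 31 numbered 7 to 12, sterol enzymes 6 to 11, and the fatty acid enzymes 0 to 1 higher and 0 to 1 lower; over all genes, 1583 to 2712 were higher and 1281 to 2178 lower. These fits have fewer samples, and a lone shMEK5 library is assumed to vary like the other groups. Of 54 fold changes of related genes, tried after seeing the data, 3 lost their call under some alternative and 0 changed sign. These 54 were picked for the smallest adjusted p in these same data, which favours keeping the call. They therefore do not measure how firm the related genes are in general. Values given for related genes outside the 54, such as Me1 in shMEK5, are not in this count. Whether replicate numbers pair the samples could not be decided. Correlations of same-numbered deviations ran from -0.191 to 0.518 and exceeded 0.1 in 3 of 7 pairs. The same-numbered shMEK5 and shERK5 libraries correlated at 0.465 and 0.518. With 2 libraries the shMEK5 deviations are mirror images, so these pairs are not independent. With the replicate block, 16 of the 31 genes were called in shMEK5, 19 in shERK5 and 13 between the knockdowns, against 14, 19 and 14 without it. It added Sc5d (0.18, adjusted p = 0.0268) and Fasn (-0.119, adjusted p = 0.0494) in shMEK5, and between the knockdowns it added Sqle and ended the calls of Hmgcs1 and Pmvk. Without a filter on low values, or with the compared groups alone, 12 of the 31 were called between the knockdowns, and with TMM, RLE, edgeR or DESeq2 11. Depth did not limit the 31 genes, the lowest of which stood above 2 CPM. The number of libraries limits small differences.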

Other observations

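Of 10 tested genes of fatty acid oxidation, the breakdown pathway, 9 were higher in shERK5 than in shMEK5 and 0 lower. Of all tested genes, 22.0% were higher. The median difference was 0.304 on the log2 scale, against 0.017 over all tested genes. The count of higher genes was 7 to 9 under the alternatives other than leaving a library out. It was lower still in some fit with a library left out. Cpt1a, the carnitine palmitoyltransferase that admits long-chain fatty acids to mitochondria, averaged 21.7 CPM in shERK5, 12.2 CPM in shMEK5 and 21.2 CPM in shCTRL; it fell in shMEK5 by 0.75 (SE 0.09, limma adjusted p = 6.82e-05). Against shCTRL, 4 of the 10 rose and 1 fell in shERK5, in total 50% against 63.3% of all tested genes, and 2 rose and 5 fell in shMEK5, with 1 that rose without shMEK5 replicate 2 or shCTRL replicate 3. By direction, 40% rose and 10% fell in shERK5, against 32.0% and 31.3% of all tested genes. In shMEK5, 20% rose and 50% fell, against 23.1% and 25.6%. Etfdh, which passes electrons from acyl-CoA dehydrogenases to the respiratory chain, rose in both, by 0.50 in shERK5 and 0.32 in shMEK5.

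Of 10 glycerolipid assembly genes, 5 rose and 1 fell in shERK5, in total 60% against 63.3% of all tested genes, and 3 rose and 2 fell in shMEK5, in total 50% against 48.7%. These totals are near the background. By direction, 50% rose and 10% fell in shERK5, against 32.0% and 31.3% of all tested genes. In shMEK5, 3 rose (30%) and 2 fell (20%), against 23.1% and 25.6%. Without shMEK5 replicate 2 these shMEK5 counts were 2 and 1, and the 1 that fell in shERK5 was not called without shERK5 replicate 1 or without shCTRL replicate 1 or 3. Gpam, the first acyltransferase of triglyceride synthesis, rose in shERK5 by 0.55 (SE 0.06, adjusted p = 1.49e-05). Agpat1, the next acyltransferase, rose in both, by 0.61 in shERK5 and 0.42 in shMEK5. Dgat2, which completes triglycerides, averaged 11.8 CPM in shERK5, 18.2 CPM in shMEK5 and 11.0 CPM in shCTRL, a rise in shMEK5 of 0.69 (SE 0.09, adjusted p = 0.000123). Plin2, a coat protein of lipid droplets, rose in shERK5 by 0.33 (SE 0.06, adjusted p = 0.000425).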
